A study of Mus musculus with 6 samples.

Results

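The genes described here encode proteins that carry out or steer pre-mRNA splicing, except Snrpert, which the annotation calls a processed pseudogene. They were taken by symbol: every gene whose name begins with Srsf and a number, Hnrnp, Sf3a, Sf3b, Snrp or Prpf, together with Clk1 to Clk4, leaving out rows marked as pseudogenes by "-ps". The rule found 70 of the 25939 genes listed, made up of 11 SR protein genes (Srsf), 4 CDC-like kinases (Clk), 20 hnRNP genes (Hnrnp), 9 genes of the SF3A and SF3B complexes, 13 genes of Sm and other snRNP proteins (Snrp) and 13 pre-mRNA processing factors (Prpf). A further 3 rows matched the pattern but held "-ps" and were left out. Smooth muscle cells were isolated from mouse aorta, cultured, and kept for 48 h either with trimethylamine N-oxide (TMAO), a metabolite formed in the liver from a product of gut bacteria, or under the condition labelled Control, with 3 libraries in each group. The labels name neither mouse strain, age and sex nor TMAO dose, vehicle and the number of animals behind each library, so p-values measure only the spread between these libraries, which may be technical.

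Splicing removes introns from pre-mRNA and is performed by the spliceosome, which is built on each intron from small nuclear ribonucleoproteins (snRNPs). Most snRNPs carry a ring of Sm proteins around its RNA, the U2 snRNP adds the SF3A and SF3B complexes that hold the branch point, and PRPF proteins serve in the U4/U6.U5 particle and in activation. SR proteins bind exons and mostly promote their inclusion, hnRNP proteins often oppose it, and CLK kinases phosphorylate the SR proteins. Many SR and hnRNP genes limit their own output by splicing their transcripts into forms that nonsense-mediated decay removes, so a gene-level value adds productive and unproductive transcripts together.

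No splicing gene of the group rose or fell past the adjusted threshold after 48 h of TMAO. Positive differences made up 80% of SR protein genes (8 of 10), the largest share of any class, beside 76.9% of PRPF genes (10 of 13) and 60.0% of all tested genes. These shares depended on the scaling: with median-ratio scaling Srsf3, Prpf8 and Prpf19 turned negative, as did the median over all tested genes (-0.0086). Srsf5, Srsf11, Srsf2 and Srsf6 stood at 10.9 to 25.7% above the Control mean, whereas Srsf1 changed by -24.7%. The median over Sm and snRNP protein genes was -0.01 on the log2 scale. Values were FPKM (fragments scaled to exon length and library size), and differences were taken on log2(FPKM + 1), a scale that understates the change of low genes. Genes at 1 FPKM or more in at least 3 of the 6 libraries were tested, which kept 68 of the 70 members and left out Snrpf and Srsf12. With limma and Benjamini-Hochberg adjustment over all 11062 tested genes at a threshold of 0.05, 0 of the 68 members were called, against 0.181% of all tested genes (20 genes, of which 8, or 0.0723%, were higher and 12, or 0.108%, were lower). That split was 7 higher and 18 lower with quantile normalization, and 9 and 18 with median-ratio scaling. It turned to more higher than lower genes when any single library but TMAO 3 was left out, with 14 and 8 without Control 1, 12 and 8 without Control 2, 8 and 3 without Control 3, 8 and 4 without TMAO 1 and 42 and 14 without TMAO 2. The smallest adjusted p among the members was 0.152, and limma-voom on recovered reads called 1 member, Srsf5 (adjusted p = 0.0483). At an unadjusted limma p under 0.05, 10 members (14.7%) were higher with TMAO against 8.61% of all tested genes, and 3 members (4.41%) were lower against 4.48%. With median-ratio scaling 7 members were higher, against 5.22% of all tested genes. In 15 members (22.1%) all 3 TMAO libraries lay above all 3 Control libraries, against 12.4% of tested genes, and in 4 members (5.88%) they all lay below, against 6.23%. Positive differences were found for 44 members (64.7%) and for 60.0% of tested genes, negative ones for 24 members (35.3%) and 40.0% of tested genes, and the median difference was 0.03 over the members and 0.02 over all tested genes. These medians depended on the scaling: they were 0.013 and -0.0022 with quantile normalization and -0.0042 and -0.0086 with median-ratio scaling. These shares are descriptions, since the genes of a module are not replicates of a condition.

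**Figure D1:**
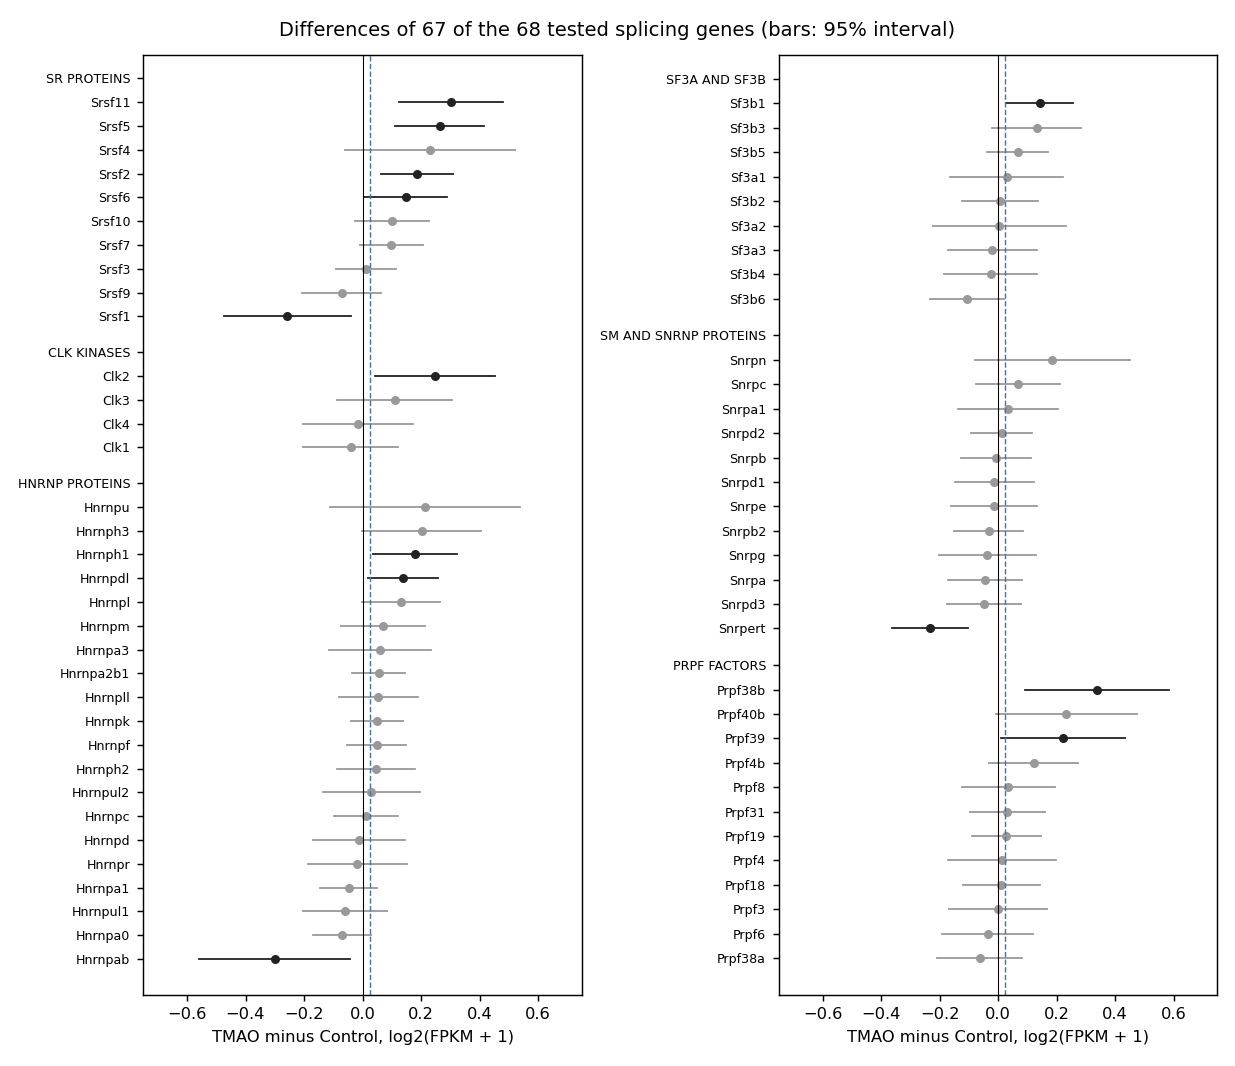
Log2 difference (TMAO minus Control, log2(FPKM + 1) scale) of 67 of the 68 tested splicing genes, by class, with bars for the 95% confidence interval of the limma fit, dark symbols for an unadjusted p under 0.05 and a dashed line at the median of all tested genes (0.02). Differences ran from -0.30 (Hnrnpab) to 0.34 (Prpf38b), and no member passed the adjusted threshold.

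The depth implied by the FPKM steps was 14991252 to 16806728 reads per library, so 1 read in 1 kb of exon was worth 0.0595 to 0.0667 FPKM. The members together held 0.438 to 0.439% of the summed FPKM in Control libraries and 0.445 to 0.462% in TMAO libraries. Their summed FPKM itself overlapped between groups, at 1862 to 1924 in Control and 1892 to 1933 in TMAO libraries, and TMAO 1, with the highest share, had the lowest FPKM sum over all genes (409757, against 421357 to 439146 in the others). Of the 10 members higher at an unadjusted p under 0.05, TMAO 1 was the highest TMAO library for 9 and TMAO 2 the lowest for all 10, whereas among the 952 tested genes called that way each of these orders held for 515. Leaving out TMAO 2 raised the number of higher members to 17, and leaving out TMAO 1 or Control 1 lowered it to 5 in either case. The share of all tested genes counted the same way was 9.98% without TMAO 2, 6.64% without TMAO 1 and 6.52% without Control 1. The 3 lower members became 1 without Control 3. In cultures such as these, fewer cells of a type and less RNA per cell cannot be told apart. Of 8 smooth muscle markers 4 passed the filter. Acta2 stood at 476 to 493 FPKM and Smtn at 4.14 to 4.82 FPKM, both with overlap between groups. Tagln, Cnn1, Myh11 and Myocd, markers of contractile smooth muscle, were under 1 FPKM in every library. Myocd had 0.674, 0.610 and 0.602 FPKM in Control and 0.518, 0.439 and 0.478 FPKM in TMAO libraries, without overlap. Actg2, a smooth muscle actin, had 17.8, 17.4 and 17.5 FPKM in Control and 14.8, 16.3 and 16.7 FPKM in TMAO libraries (difference -0.14, limma adjusted p = 0.344), and the muscle filament gene Des had 1.14, 1.27 and 0.935 against 1.40, 1.32 and 1.87 FPKM (0.26, limma adjusted p = 0.344), both without overlap. The fibroblast list had 4 of 5 genes above the filter. Pdgfra of that list had 26.8, 27.6 and 25.2 FPKM in Control and 25.2, 22.6 and 23.5 FPKM in TMAO libraries (-0.15, limma adjusted p = 0.293). Its groups overlapped narrowly, with TMAO 1 just above Control 3, and Lum, Dpt and Dcn overlapped too. The endothelial list had 0 of 5 genes above the filter, and the macrophage list had 2 of 5, Lyz2 at 65.0 to 84.8 FPKM and Cd68 at 3.38 to 4.94 FPKM. The part of such markers in the member differences was not tested.

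**Figure D2:**
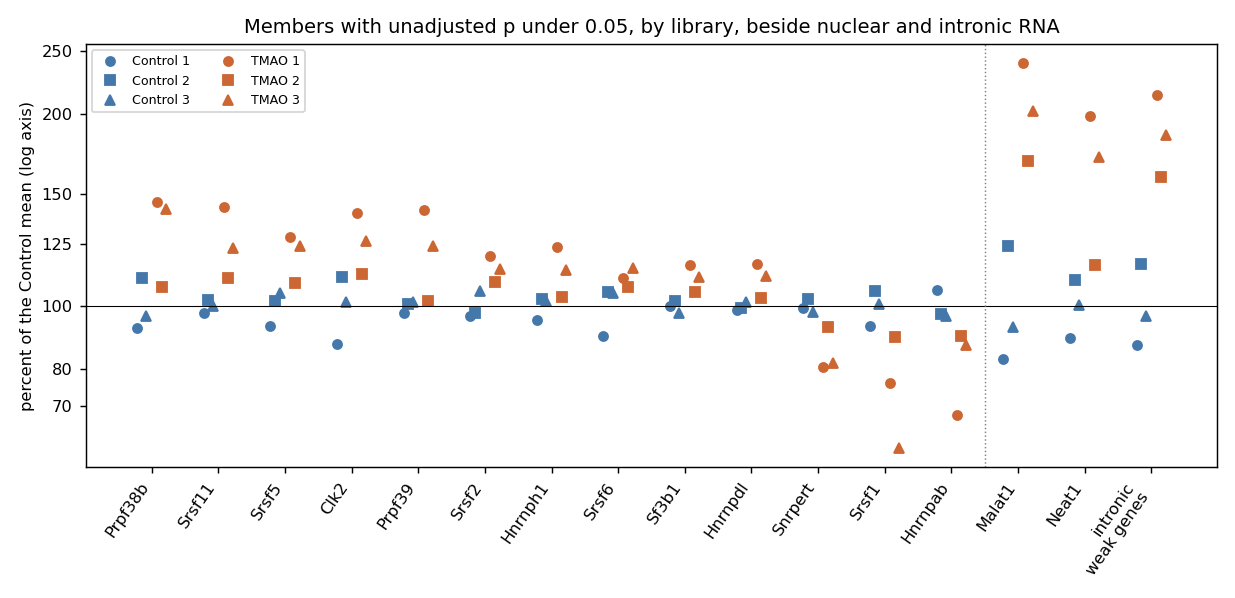
FPKM of the 13 members at an unadjusted p under 0.05, of Malat1 and Neat1, and of the summed weak genes in introns, each as a percentage of its Control mean (log axis), with 1 symbol per library. For the 10 higher members TMAO 2 is the lowest of the 3 TMAO libraries, and it falls inside the Control range for Prpf38b.

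Of the 10 tested SR genes, 4 (40%) were higher and 1 (10%) was lower at an unadjusted limma p under 0.05, against 8.61% and 4.48% of all tested genes, and the median difference of the class was 0.12 on the log2 scale. Leaving out single libraries kept the count of higher SR genes between 3 and 5, while the share of all tested genes ran from 6.03% to 9.98%. Srsf5, an SR protein that binds exonic enhancers and regulates its own splicing, stood at 58.8, 64.5 and 66.2 FPKM in Control 1 to 3 and at 81.2, 68.7 and 78.6 FPKM in TMAO 1 to 3. All TMAO libraries lay above all Control libraries, with TMAO 2 only just above Control 3. The difference was 0.26 ± 0.068 (SE, n = 3 per group) with a limma adjusted p of 0.163. Without TMAO 2 it was 0.34 with a limma adjusted p of 0.0497. That fit called 56 of the 11062 tested genes, against 20 with all libraries. Leaving out any other single library called no member. Srsf11, which joins the SR family by its arginine-serine domain, had 13.8, 14.5 and 14.1 FPKM in Control and 20.2, 15.7 and 17.4 FPKM in TMAO libraries. The groups did not overlap and the TMAO libraries spread more widely than the Control libraries (SD 2.29 against 0.339 FPKM). Its difference was 0.30 ± 0.080 (SE, n = 3 per group, limma adjusted p = 0.164). Srsf2, also known as SC35 and needed for early spliceosome assembly, went from 22.1, 22.3 and 24.1 FPKM in Control to 27.4, 24.9 and 26.1 FPKM with TMAO, a difference of 0.19 ± 0.056 (SE, n = 3 per group, limma adjusted p = 0.207). Srsf6, another exon-binding SR protein, had 27.1, 31.8 and 31.7 FPKM in Control and 33.5, 32.4 and 34.6 FPKM in TMAO libraries, with Control 1 the lowest of all. Its difference was 0.15 (limma adjusted p = 0.366), and 0.075 without Control 1.

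The other SR members varied in direction and size. Srsf1, the best studied SR protein and a regulator of both constitutive and alternative splicing, was read at only 1.70, 1.93 and 1.84 FPKM in Control libraries and at 1.39, 1.64 and 1.10 FPKM with TMAO. The TMAO libraries all lay below the Control libraries, and the difference was -0.26 ± 0.098 (SE, n = 3 per group, limma adjusted p = 0.306). Srsf7 had 37.6, 35.4 and 38.5 FPKM in Control and 39.7, 41.0 and 38.8 FPKM in TMAO libraries, without overlap but with a difference of 0.10 ± 0.049 (SE, limma adjusted p = 0.431). Srsf3, the smallest SR protein, lay at 40.1 to 42.1 FPKM in Control and 40.1 to 42.7 FPKM in TMAO libraries, and the 95% confidence interval of its difference ran from -0.09 to 0.11. Srsf10 stood at 19.6 to 20.6 FPKM in Control and 20.5 to 23.3 FPKM in TMAO libraries, with the upper end given by TMAO 1. Srsf12 was read at 0 to 0.0422 FPKM in every library. Srsf3 (41.3 FPKM in Control), Srsf7 (37.1 FPKM) and Srsf6 (30.2 FPKM) followed Srsf5 (63.1 FPKM) as the most abundant SR transcripts per exon length.

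The DNA just upstream of the starts of Srsf5 and Srsf2 is shown because these were the most abundant SR genes among those with the smallest p-values, and because they carry different members of the set of motifs searched. The 250 bases before each start are from RefSeq on GRCm38.p6, with capitals marking matches to the ETS factor core (CCGGAAG or its reverse complement CTTCCGG), the YY1 core (CCATNTT) or the TATA box (TATAAA).
Srsf5, chr12:80945249-80945498, plus strand: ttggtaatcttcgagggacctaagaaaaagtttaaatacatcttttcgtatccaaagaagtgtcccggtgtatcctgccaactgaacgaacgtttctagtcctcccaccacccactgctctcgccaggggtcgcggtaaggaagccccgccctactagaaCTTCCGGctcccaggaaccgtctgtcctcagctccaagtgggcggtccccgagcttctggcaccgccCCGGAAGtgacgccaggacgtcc
Srsf2, chr11:116853095-116853344, minus strand: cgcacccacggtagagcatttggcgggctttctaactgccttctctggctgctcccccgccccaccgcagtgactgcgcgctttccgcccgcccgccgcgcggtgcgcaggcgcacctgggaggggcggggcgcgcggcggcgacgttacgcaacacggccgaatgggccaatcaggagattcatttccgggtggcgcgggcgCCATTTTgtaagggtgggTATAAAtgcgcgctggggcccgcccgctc
The Srsf5 stretch held the ETS core on either strand, and the Srsf2 stretch held a YY1 core followed by a TATA box. A match describes the letters only and shows no binding.

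Promoter sequences of 300 bases (250 before and 50 after the start) were matched by symbol for 60 of the 70 members, and each motif was searched on both strands. A gene counted as holding a motif if any of its promoters did, so genes with several starts had more chances of a match. The ETS core was present for 21 of 60 members (35%). It was present for 22.03% of the 8106 tested genes with promoters and for 9.93% of all 27025 genes with promoters. By class, 6 of 7 SF3A and SF3B genes, 4 of 11 SR genes and 2 of 18 hnRNP genes held it. The YY1 core was held by 18.3% of members and 18.3% of tested genes. The NRF1 core (GCATGCG) was held by 10% of members against 7.81% of tested genes, and TATAAA by 11.7% against 8.5%. No test of these shares was made.

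Among the CLK kinases, which phosphorylate SR proteins in the nucleus, Clk2 had 2.12, 2.71 and 2.47 FPKM in Control and 3.40, 2.73 and 3.08 FPKM in TMAO libraries. All TMAO libraries of Clk2 lay above Control, TMAO 2 by a small margin, and the difference was 0.25 ± 0.093 (SE, n = 3 per group, limma adjusted p = 0.298). Clk3 had 2.77, 2.80 and 2.93 FPKM in Control and 3.42, 2.65 and 3.39 FPKM with TMAO, so that TMAO 2 lay below every Control library. Clk1, the most abundant of the 4, stood at 11.04 to 11.7 FPKM in Control and 9.83 to 12.0 FPKM in TMAO libraries. Clk4 stood at 7.41 to 7.53 FPKM in Control and 6.45 to 8.51 FPKM in TMAO libraries. In all 4 kinases TMAO 1 was the highest and TMAO 2 the lowest TMAO library, and the differences of Clk1 (-0.04) and Clk4 (-0.01) turned to 0.04 and 0.07 without TMAO 2.

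The hnRNP genes held the most abundant transcripts of the group. Hnrnpa1, an RNA-binding protein that represses exon inclusion and shuttles mRNA out of the nucleus, was the highest of all 70 members per exon length, at 239, 234 and 247 FPKM in Control and 227, 228 and 242 FPKM in TMAO libraries. The groups overlapped, and the 95% confidence interval of its log2 difference ran from -0.14 to 0.05. Hnrnpa2b1 followed at 106 ± 1.55 FPKM in Control and 109.8 ± 2.71 FPKM with TMAO (SD, n = 3 each). Hnrnpk, which binds cytosine-rich RNA and DNA, came next at 90.3 ± 1.72 and 93.5 ± 1.11 FPKM (SD, n = 3 each). Of the 70 members, 2 averaged 100 FPKM or more, 45 averaged 10 FPKM or more and 5 averaged under 2 FPKM. Hnrnpc, whose tetramer packages nascent transcripts, had 76.7, 72.2 and 74.3 FPKM in Control and 70.8, 77.6 and 76.7 FPKM in TMAO libraries, and its difference of 0.01 took the other sign under the 3 alternative scalings.

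Of the 20 hnRNP genes, 2 (10%) were higher and 1 (5%) lower at an unadjusted limma p under 0.05, shares near those of all tested genes (8.61% and 4.48%), and the class median was 0.05 on the log2 scale. Hnrnph1, which binds G-rich tracts, had 45.7, 49.4 and 49.0 FPKM in Control and 59.6, 49.6 and 54.8 FPKM in TMAO libraries. TMAO 2 stood barely above Control 2, and the difference was 0.18 ± 0.065 (SE, n = 3 per group, limma adjusted p = 0.279). Hnrnpdl, a relative of Hnrnpd that limits its own level by alternative splicing, had 27.3, 27.4 and 28.1 FPKM in Control and 32.2, 28.4 and 30.8 FPKM with TMAO (difference 0.14 ± 0.054 SE, limma adjusted p = 0.316). Hnrnpab, a protein that binds adenine- and uracil-rich RNA, ran the other way with 75.8, 69.6 and 69.0 FPKM in Control and 48.4, 64.2 and 62.2 FPKM in TMAO libraries. The value in TMAO 1 was far under the others, and the difference was -0.30 ± 0.108 (SE, n = 3 per group, limma adjusted p = 0.316). Without TMAO 1 the difference of Hnrnpab was -0.17. Hnrnph3 had 3.80, 3.52 and 4.25 FPKM in Control and 5.19, 4.04 and 4.57 FPKM with TMAO, with overlap. Hnrnpu, which binds the nuclear scaffold, had its highest value in TMAO 2 (9.01 FPKM) against 5.56 to 6.74 FPKM in Control and 5.78 and 7.14 FPKM in TMAO 1 and TMAO 3. Hnrnpll, known for regulating Ptprc splicing in lymphocytes, stood at 7.19 to 7.32 FPKM in Control and 7.34 to 8.02 FPKM in TMAO libraries, a gap smaller than the spread within the TMAO group.

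The SF3A and SF3B genes, which build the part of the U2 snRNP that recognises the branch point, had a class median of 0.01, which was below 0 under the 3 alternative scalings (-0.0078 to -0.028). Of the 9 genes 1 (11.1%) was higher and 0 lower at an unadjusted limma p under 0.05, against 8.61% and 4.48% of all tested genes. Sf3b1, the largest SF3B subunit, had 25.5, 25.9 and 24.8 FPKM in Control and 29.4, 26.7 and 28.3 FPKM in TMAO libraries. The groups did not overlap, and the difference was 0.14 ± 0.051 (SE, n = 3 per group, limma adjusted p = 0.278). Sf3b3, a scaffold of the same complex, had 6.46, 7.11 and 6.90 FPKM in Control and 8.12, 7.12 and 7.49 FPKM with TMAO, where TMAO 2 and Control 2 were nearly equal. Sf3b6, which contacts the branch point, lay at 35.5 to 39.9 FPKM in Control and 33.5 to 36.9 FPKM in TMAO libraries. Sf3b5, the smallest SF3B subunit, lay at 39.2 to 40.1 FPKM in Control and 39.8 to 43.2 FPKM in TMAO libraries. The 9 genes spanned 4.41 FPKM (Sf3a1) to 39.6 FPKM (Sf3b5) in Control, although their products assemble into shared complexes.

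Of the 12 tested Sm and snRNP genes, 0 were higher and 1 (8.33%) was lower at an unadjusted limma p under 0.05, against 8.61% and 4.48% of all tested genes. The lower gene was Snrpert, annotated as a processed pseudogene, and no protein-coding gene of the class was lower by that measure. The core Sm ring is made of SmB, SmD1, SmD2, SmD3, SmE, SmF and SmG. The genes of 6 of these 7 proteins, Snrpb, Snrpd1, Snrpd2, Snrpd3, Snrpe and Snrpg, ranged from 36.7 to 79.7 FPKM over the 6 libraries. Snrpd2 (75.2 FPKM in Control and 75.8 FPKM with TMAO) and Snrpb (74.2 and 73.7 FPKM) were the highest of the class. Their 95% confidence intervals of the log2 difference ran from -0.09 to 0.12 for Snrpd2 and from -0.13 to 0.11 for Snrpb. Snrpc, which encodes a U1 snRNP protein, had 10.7 to 11.7 FPKM in Control and 11.3 to 12.8 FPKM in TMAO libraries. Snrpn, an imprinted relative of Snrpb best known from neurons, had 1.17, 1.88 and 1.57 FPKM in Control and 1.71, 2.26 and 1.67 FPKM with TMAO, and 34.1% of its exon bases are shared with other genes.

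**Figure D3:**
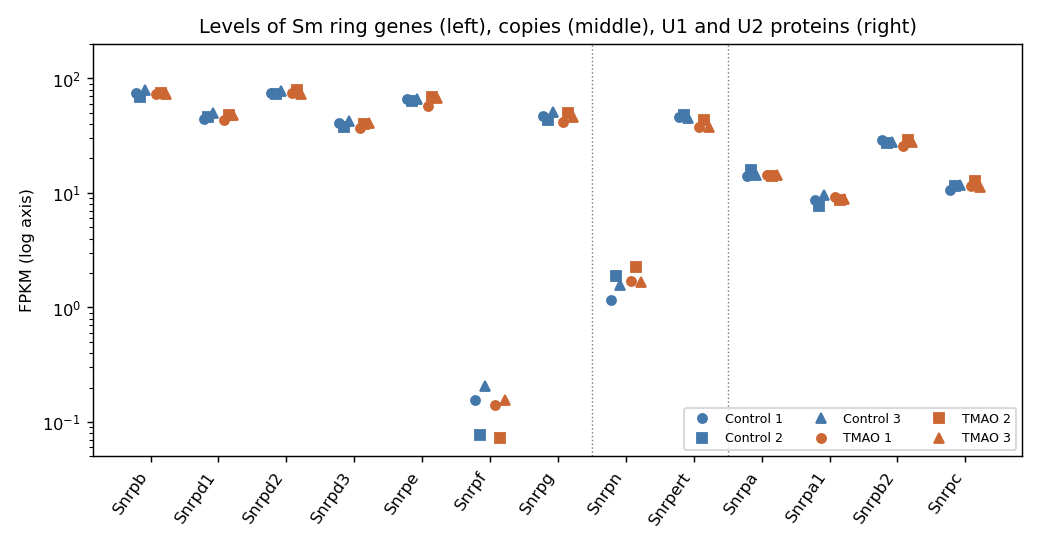
FPKM of the Sm and snRNP protein genes in the 6 libraries, on a log axis, with 1 symbol per library and dotted lines between the Sm ring genes, the related Snrpn and Snrpert, and the U1 and U2 proteins. Snrpf lies between 0.0728 and 0.207 FPKM, while the other 6 Sm ring genes lie between 36.7 and 79.7 FPKM.

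Snrpf stood apart from its partners in the ring. It was read at 0.155, 0.0771 and 0.207 FPKM in Control and at 0.141, 0.0728 and 0.155 FPKM in TMAO libraries, equal to 1 to 3 reads per library, so no fold was computed. In the GENCODE M21 annotation (mm10) the gene lies at chr10:93583029-93589706 on the minus strand, and 85.4% of its exon bases also fall within exons of the opposite-strand genes Ccdc38 and 4933408J17Rik. Those genes were read at no more than 0.0977 FPKM in any library. How the authors counted reads in bases shared by 2 genes is not stated in the labels or headers. Such sharing reached over 5% of exon bases in 17 members, for 14 of them with the opposite strand only, and over 20% in 6, including Srsf4 (43.0%), Hnrnpab (29.1%), Hnrnpf (26.5%) and Srsf2 (25.3%). Values of these members are therefore less certain than those of genes with exons of their own.

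Snrpert is a copy of Snrpe and was the member with the smallest p. The annotation (mm10, GENCODE M21) calls it a processed pseudogene. Snrpert had 46.1, 47.6 and 45.4 FPKM in Control and 37.3, 43.1 and 37.8 FPKM in TMAO libraries, and the groups did not overlap. The difference was -0.23 ± 0.059 (SE, n = 3 per group) with a limma adjusted p of 0.152. Without TMAO 2 it was -0.30 with a limma adjusted p of 0.0399, in the fit that called 56 of all tested genes against 20 with all libraries. Snrpert was not called when any other single library was left out. Snrpe had 66.3, 63.1 and 66.05 FPKM in Control and 57.4, 68.7 and 67.9 FPKM with TMAO, with overlap. Of the reads given to the pair, Snrpert received 12.4, 13.3 and 12.3% in Control and 11.7, 11.3 and 10.2% in TMAO libraries. Where a copy matches its source, reads cannot be told apart, so the split rests on the authors' alignment and counting, and both values are uncertain.

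Among the PRPF genes, 2 were higher and 0 lower at an unadjusted limma p under 0.05 (15.4% and 0%, against 8.61% and 4.48% of all tested genes), and 0 of 13 passed the adjusted threshold. Prpf38b, a component of the activated spliceosome family named after yeast Prp38, had 5.65, 6.77 and 5.90 FPKM in Control and 8.90, 6.54 and 8.66 FPKM in TMAO libraries. TMAO 2 fell inside the Control range, and the difference of 0.34 ± 0.109 (SE, n = 3 per group, limma adjusted p = 0.244) was the most positive of all members, though not without TMAO 1 or TMAO 3. Prpf39, a U1 snRNP associated factor, had 3.21, 3.31 and 3.34 FPKM in Control and 4.65, 3.35 and 4.07 FPKM with TMAO. The groups of Prpf39 did not overlap, though TMAO 2 stood barely above Control 3, and the limma adjusted p was 0.363. Prpf40b had 1.21, 1.53 and 1.42 FPKM in Control and 2.27, 1.62 and 1.56 FPKM in TMAO libraries, without overlap (limma adjusted p = 0.389). Prpf4b, a kinase of the tri-snRNP, had 8.47 to 8.58 FPKM in Control and 8.52 to 10.2 FPKM with TMAO. Prpf8, the scaffold at the spliceosome's catalytic core, had 9.58, 11 and 9.65 FPKM in Control and 11.2, 9.76 and 10.1 FPKM with TMAO, and the interval of its difference ran from -0.12 to 0.19. Prpf19, a ubiquitin ligase of the activated spliceosome, had 12.6 ± 0.191 FPKM in Control and 12.9 ± 0.344 FPKM with TMAO (SD, n = 3 each). Prpf38a stood at 9.97 to 10.4 FPKM in Control and 8.96 to 10.4 FPKM with TMAO.

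**Figure D4:**
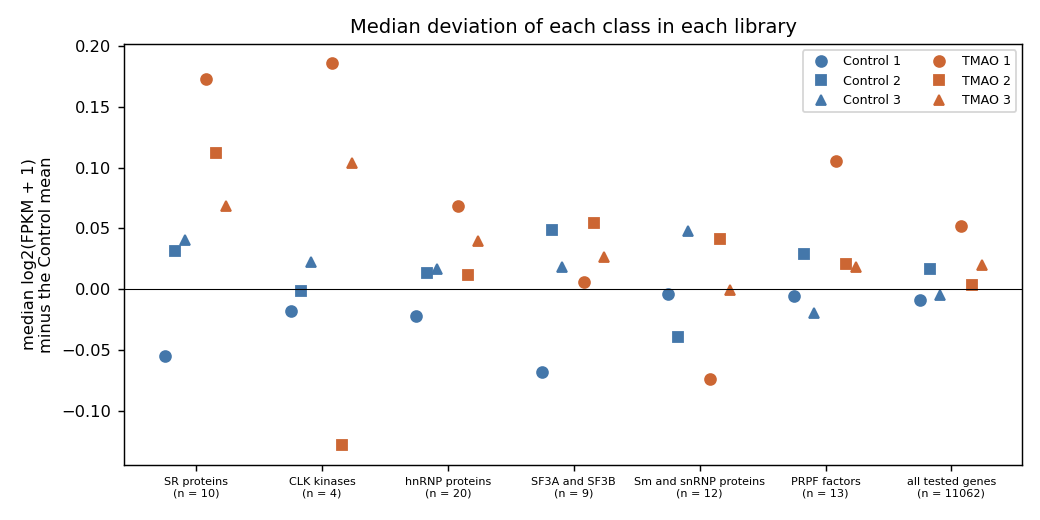
Median over the tested members of each class of log2(FPKM + 1) minus the Control mean, 1 symbol per library, beside all tested genes. The SR points lie at -0.05 to 0.04 in Control and 0.07 to 0.17 in TMAO libraries, and the Sm and snRNP points overlap between groups.

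By library, the SR class had medians of -0.05, 0.03 and 0.04 in Control and 0.17, 0.11 and 0.07 in TMAO 1 to 3, so its groups did not overlap. The CLK medians in TMAO 1 to 3 were 0.19, -0.13 and 0.10, on both sides of Control. The Sm and snRNP medians were -0.07, 0.04 and -0.0002 in TMAO libraries, inside or near the Control range of -0.04 to 0.05. Over all tested genes the medians were 0.05, 0.003 and 0.02 in TMAO 1 to 3, so TMAO 1 was also the highest library across the transcriptome. Summed FPKM of the SR genes was 244, 255 and 263 in Control and 289.9, 270.1 and 283 in TMAO libraries, whereas summed FPKM of the hnRNP genes was 866 to 882 in Control and 865 to 889 with TMAO.

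Splicing genes outside the group were followed through 8 lists by role, which held 151 genes, 143 of them tested. With limma, 0 of 143 passed the adjusted threshold, and the median difference was 0.03. At an unadjusted limma p under 0.05, 22 (15.4%) were higher and 3 (2.1%) lower, against 8.61% and 4.48% of all tested genes. Of these 22 higher genes, 12 came from the list of SR protein kinases and SR-related proteins. The list of SR protein kinases and SR-related proteins had the largest share, with 12 of 20 higher at an unadjusted limma p under 0.05 against 8.61% of tested genes. In 8 of 20 all TMAO libraries lay above all Control libraries, against 12.4% of tested genes, and the median difference was 0.19. The count of 12 was 5 without TMAO 1 or Control 3 and 6 without TMAO 3 or Control 1. With quantile normalization and with median-ratio scaling it was 9, against 6.73% and 5.22% of all tested genes. The count of 22 over all 8 lists was 11 without TMAO 1, 13 without TMAO 3 or Control 1 and 14 without Control 3. The share of all tested genes counted that way was 6.64% without TMAO 1 and 6.03% without TMAO 3. It was 6.52% without Control 1 and 7.2% without Control 3. Srrm1, a coactivator that bridges SR proteins and snRNPs, had 6.63, 7.22 and 6.73 FPKM in Control and 9.24, 7.75 and 8.16 FPKM with TMAO (difference 0.25, limma adjusted p = 0.196). Pnisr had 3.97, 4.45 and 3.995 FPKM in Control and 6.72, 4.54 and 5.998 FPKM with TMAO (difference 0.38, limma adjusted p = 0.213, and 0.52 with adjusted p = 0.0374 without TMAO 2). The fit without TMAO 2 called 56 of all tested genes, against 20 with all libraries. Rsrp1 and Arglu1, other arginine- and serine-rich or arginine- and glutamate-rich nuclear proteins, had differences of 0.48 and 0.45 (limma adjusted p = 0.372 and 0.285).

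In the other lists, U2af1, the small subunit that reads the 3' splice site, had the smallest adjusted p of any splicing gene examined. It stood at 23.0, 23.8 and 24.5 FPKM in Control and 27.0, 29.4 and 27.8 FPKM with TMAO, with TMAO 2 the highest, and the difference was 0.23 ± 0.051 (SE, n = 3 per group, limma adjusted p = 0.114). Rbm5 followed in that list (0.28, limma adjusted p = 0.275). Among alternative splicing regulators, Taf15 (0.21, limma adjusted p = 0.233) and Rbfox2 (0.16, limma adjusted p = 0.272) had the smallest p-values. In the minor spliceosome list Scnm1 was higher (0.21, limma adjusted p = 0.218) and Zrsr1 lower (-0.22, limma adjusted p = 0.309). In the exon junction and decay list Casc3, a core factor of the exon junction complex, had a difference of 0.18 (limma adjusted p = 0.308). The LSM list held 1 lower gene at an unadjusted p under 0.05, Lsm5, with 23.5, 22.9 and 27.3 FPKM in Control and 18.3, 21.2 and 21.9 FPKM with TMAO (-0.25, limma adjusted p = 0.245), beside Lsm10 at 0.09. None of 34 tri-snRNP and catalytic genes (Usp39 0.20, Wbp4 0.10) and none of 11 SMN assembly genes (Strap -0.07, Gemin2 0.11) reached an unadjusted limma p under 0.05. Of the U1 and U5 snRNP genes named Snrnp, Snrnp70 had a difference of 0.16 (limma adjusted p = 0.305) and Snrnp200 of 0.01.

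Of a list of 4 nuclear RNAs, 2 passed the filter, Malat1 and Neat1, and in both all TMAO libraries lay above all Control libraries. Malat1, a nuclear long noncoding RNA held in speckles rich in splicing factors, had 75.03, 113 and 84.4 FPKM in Control and 218, 153 and 183 FPKM with TMAO (difference 1.02, limma adjusted p = 0.196). Neat1, the scaffold RNA of paraspeckles, had 2.74, 3.38 and 3.09 FPKM in Control and 6.08, 3.57 and 5.26 FPKM with TMAO (difference 0.53, limma adjusted p = 0.231, and 0.71 with adjusted p = 0.0228 without TMAO 2). Without TMAO 2, 56 of all tested genes were called, against 20 with all libraries. The other two, under 1 FPKM, overlapped between groups: Meg3 averaged 0.398 FPKM in Control and 0.342 FPKM with TMAO, and Kcnq1ot1 0.152 and 0.171 FPKM. A set of 1325 genes under 1 FPKM that lie within introns of 992 other genes on the same strand summed to 97.2, 130.1 and 108 RPM (reads scaled to library size) in Control and 239, 178 and 207 in TMAO libraries, a ratio of 1.86 between group means. For the 5 such genes inside 4 of the members, the sums were 1.86, 2.92 and 1.96 against 6.23, 4.45 and 5.47 RPM. Most of these came from A930004J17Rik, at chr4:131878628-131883237 (mm10, plus strand) in an intron of Srsf4, with 19, 33 and 26 reads in Control and 80, 60 and 62 in TMAO libraries. Srsf4, an SR protein gene, itself had 1.85, 2.46 and 2.06 FPKM in Control and 3.47, 2.41 and 2.19 FPKM with TMAO, with overlap (difference 0.23, limma adjusted p = 0.498). Mitochondrial reads made up 7.23 to 7.84% of reads in Control and 6.36 to 6.64% in TMAO libraries. For Malat1, Neat1 and the intron-lying genes TMAO 1 was the highest and TMAO 2 the lowest TMAO library, the order also seen for most of the higher members. Over all 11062 tested genes, TMAO 1 was the highest TMAO library for 5606 and TMAO 2 the lowest for 5077. The part of nuclear or unspliced RNA in the member differences was not tested.

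The transcript models of the members differ from those of most genes in how much exon lies outside coding transcripts. In GENCODE M21, 35 of 67 tested coding members (52.2%) have a transcript marked for nonsense-mediated decay, against 29.3% of 9859 tested coding genes, and 76.1% have one marked as a retained intron, against 60.2%. The median share of exon length that belongs to no coding transcript was 32.1% in members and 15.7% in tested coding genes. It was 77.9% in Clk1, 60.6% in Srsf11, 58.5% in Srsf5 and 56.5% in Prpf38b, and 2.66% in Srsf1 and 0% in Hnrnpab. Of the 10 members higher at an unadjusted limma p under 0.05, 6 had over 50% of exon length outside coding transcripts, as did 14 of the other 57, while over all tested coding genes the shares were 13.3 and 12.2%. Across genes, Spearman's rho between this share and the log2 difference was 0.18 over the 67 members and 0.12 over the 9859 coding genes. By class, rho was 0.54 over the 10 SR genes, 0.39 over the 20 hnRNP genes, 0.24 over 11 Sm and snRNP genes, -0.03 over the 13 PRPF genes, -0.05 over the 9 SF3 genes and -1 over the 4 CLK genes. These are descriptions, looked at after the values were seen, over genes that share libraries and are not independent replicates. The gene-level FPKM cannot tell coding from noncoding transcripts of a gene.

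**Figure D5:**
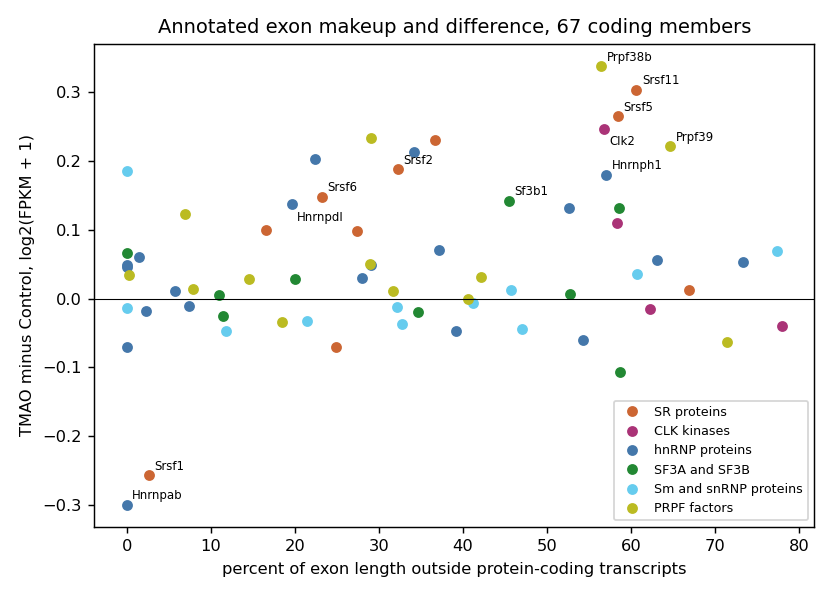
Share of each member's exon length that lies in no coding transcript (x axis, percent) against its log2 difference, TMAO minus Control (y axis), for 67 tested coding members coloured by class, with labels on the coding members at an unadjusted p under 0.05. The points scatter widely (Spearman's rho 0.18), with Srsf11, Srsf5 and Prpf38b at upper right and Srsf1 and Hnrnpab at lower left.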

How the data were processed

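RNA was sequenced from mouse aortic smooth muscle cells in 3 libraries labelled Control and 3 labelled TMAO. RNA extraction used Trizol and the library kit was a stranded TruSeq mRNA kit, per the labels' protocols. Trimmomatic, HISAT2, Cufflinks, HTSeq and build mm10 are named without versions, per the submitters' processing notes. Neither the annotation release nor the strand setting is given in the sources used here. The authors deposited 1 table of FPKM per library. FPKM values of 25499 of 25885 genes matched to GENCODE M21 (98.5%) were whole reads within 0.01 reads, which gave the depths; 54 further identifiers were not matched.

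The main test was limma 3.58.1 in R 4.3.3 (trend and robust) on log2(FPKM + 1), with genes at 1 FPKM or more in 3 libraries and Benjamini-Hochberg adjustment over 11062 genes at 0.05; the procedure was tested on simulated data. Alternatives were other scalings, filters and pseudocounts, a non-robust fit, limma-voom on recovered reads, the replicate number as a block, and leaving out each library. Members and lists were chosen with earlier results of these data known. Members were named by rule: in each class the 2 highest by mean FPKM and the 4 with the smallest p, every Clk gene and a panel of known genes; from each list the 2 genes with the smallest p. Srsf4, Srsf6, Srsf10, Hnrnpu, Snrpe, Snrpg, Snrpd1, Prpf38a, Rsrp1, Arglu1, Malat1, Neat1, Actg2, Des, Smtn, Myocd and Pdgfra were named after their values were seen. Some items are not reported here.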

Additional observations from a re-analysis of the deposited data

How the results depend on the processing

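The number of genes called among all tested genes was 20, and it was 0 with no filter, 32 with a filter of 1 CPM, 68 with a filter of a mean of 50 reads, 91 with limma-voom on recovered reads, and 11 to 56 when single libraries were left out. The 8 higher and 12 lower genes became 12 and 10 with the replicate block, 14 and 18 with a filter of 1 CPM, 32 and 36 with a filter of a mean of 50 reads, 36 and 55 with limma-voom, 8 and 16 with scaling without mitochondrial and small RNA genes and 5 and 9 without TMAO 3. With no filter, more genes entered the adjustment; otherwise the cause was not tested. Members past the adjusted threshold numbered 0, 1 with limma-voom (Srsf5), and 0 to 2 when single libraries were left out (Srsf5 and Snrpert without TMAO 2). Members higher at an unadjusted p under 0.05 numbered 10, and 5 to 17 when single libraries were left out. The share of all tested genes was 8.61%, and 6.03 to 9.98% when single libraries were left out. Without TMAO 1, 4 of the 10 members were still among those higher. Members lower numbered 3, and 1 to 3 when single libraries were left out (1 without Control 3). When single libraries were left out, the 4 higher SR genes ranged from 3 to 5, the 12 higher SR-related genes from 5 to 14 (7 with the replicate block) and the 22 higher genes of the 8 lists from 11 to 29; these 3 counts under alternatives were added after seeing the data. All 10 higher members kept a positive difference under the 16 alternatives. Same-numbered libraries showed no sign of pairing (correlations -0.0858, -0.104 and 0.0555, against -0.0612 to 0.141 for libraries of different number). With so few libraries this cannot exclude a shared source, which the labels do not state. With the replicate block 22 genes and 0 members were called, with 12 members higher and 3 lower at an unadjusted limma p under 0.05. Of all tested genes, 6.95% were higher by that measure with the replicate block.

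Of 701 values of 44 named members under the alternatives, 673 kept their sign. Snrnp200, given below beside the members, is not a member and is not counted in these values. The sign turned under quantile normalization for Hnrnpc (-0.0062), Snrpd2 (-0.0057) and Snrnp200 (-0.0302), and with median-ratio size factors for Hnrnpc (-0.0277), Prpf19 (-0.0084), Prpf8 (-0.0018), Snrpd2 (-0.0274), Srsf3 (-0.0261) and Snrnp200 (-0.0258). Scaling without mitochondrial and small RNA genes turned Hnrnpc (-0.0035), Snrpd2 (-0.0033), Srsf3 (-0.0022) and Snrnp200 (-0.0044). Leaving out single libraries gave ranges of -0.0947 to 0.0394 for Clk1, -0.105 to 0.071 for Clk4, -0.0129 to 0.0527 for Hnrnpc, -0.0163 to 0.0935 for Prpf8, -0.0501 to 0.0604 for Snrnp200, -0.0635 to 0.0375 for Snrpb, -0.0477 to 0.0417 for Snrpd1, -0.0238 to 0.035 for Snrpd2, -0.0592 to 0.0682 for Snrpe, -0.0995 to 0.026 for Snrpg and -0.0076 to 0.0384 for Srsf3. Genes at 1 to 3 reads per library, such as Snrpf, allow no comparison at this depth.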
